A study of Mus musculus with 4 samples.

Results

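Rpph1, Rmrp, Terc, Malat1, Neat1, Gm26917 and Gm42418 are 7 of the 49671 genes in the deposited tables, taken by gene symbol as long or structural noncoding RNAs and chosen by their RPKM in part, since several of them head the ranking of these total RNA libraries. RPKM is a read count divided by the length of the gene and by the depth of the library. Levels and RPKM shares helped to choose the genes and are given as description, with no test. The allele counts were not used in the choice, and the ratio of alleles was tested. The libraries came from splenic CD3+ T cells of 4 female mice, 1 library each, labelled as biological replicates of a single group. The mice were F1 mus x cast hybrids with castaneus fathers and C57BL/6 mothers that carried an Xist deletion on 1 of their X chromosomes. The cross serves as a model of skewed X inactivation, and the labels used here give no age. The column-enriched cells were grown for 48 hours on plate-bound anti-CD3 (1 µg/ml) with soluble anti-CD28 (10 µg/ml) and IMD-0354 (2.5 µM), an inhibitor of the kinase IKKβ in the NF-κB pathway. All 4 samples received the same treatment, so no effect of stimulation or of the inhibitor can be read from the values below. No group is set against another, and the only comparison within a library is that of its Castaneus allele with its C57BL/6 allele. Castaneus was the father in every case, so that an effect of strain and an effect of the parent of origin cannot be told apart.

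These RNAs work without being translated. Rpph1 is the catalytic RNA of RNase P, which trims the 5′ ends of transfer RNA precursors, and Rmrp is the related RNA of RNase MRP, which cuts ribosomal RNA precursors. Both are made by RNA polymerase III from promoters that lie upstream of the gene. Terc is the RNA from which telomerase copies telomere repeats. Malat1 is a nuclear RNA of splicing speckles, and Neat1 is the scaffold of paraspeckles, nuclear bodies that hold RNA-binding proteins. Gm26917 and Gm42418 are annotated as long noncoding RNAs in a stretch of chromosome 17 that holds a copy of ribosomal RNA sequence.

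The sequences of the 3 short RNAs are shown as transcripts of GENCODE M21 on the mm10 genome (GRCm38), all on the minus strand. Rpph1 (ENSMUSG00000092837) is 319 bases long at chr14:50807449-50807767 and Rmrp (ENSMUSG00000088088) is 271 bases long at chr4:43492788-43493058. Terc (ENSMUSG00000064796) is annotated with 423 bases at chr3:96414437-96414859. Of Rpph1 and Terc the first 150 bases are printed and Rmrp is printed whole. Capitals in Terc mark bases 28 to 36, the longest stretch that is complementary to the telomere repeat and holds the template.
Rpph1: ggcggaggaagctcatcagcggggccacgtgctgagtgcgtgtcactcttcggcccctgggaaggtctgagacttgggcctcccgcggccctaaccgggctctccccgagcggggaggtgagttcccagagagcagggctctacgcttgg
Rmrp: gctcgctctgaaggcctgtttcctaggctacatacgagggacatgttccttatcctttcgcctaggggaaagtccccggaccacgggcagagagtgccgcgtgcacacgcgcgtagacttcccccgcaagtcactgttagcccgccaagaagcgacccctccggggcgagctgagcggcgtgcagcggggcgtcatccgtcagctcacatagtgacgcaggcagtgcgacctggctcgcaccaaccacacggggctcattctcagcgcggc
Terc: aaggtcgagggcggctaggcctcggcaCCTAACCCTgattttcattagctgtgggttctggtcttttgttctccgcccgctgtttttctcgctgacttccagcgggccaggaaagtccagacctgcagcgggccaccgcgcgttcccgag

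Rpph1 and Rmrp each lie head to head with a protein-coding gene, Parp2, which encodes a DNA repair enzyme, and Ccdc107. The RefSeq promoter windows of those 2 genes (GRCm38.p6) cover the upstream side of the RNA genes and are shown on the strand of the RNA genes. The first spans chr14:50807666-50807965, of which 198 bases are upstream of Rpph1 and 102 are its own first bases. The second spans chr4:43493115-43493414, from 57 to 356 bases upstream of Rmrp. Capitals mark matches on either strand to the octamer ATGCAAAT, a motif found in upstream elements of many small nuclear RNA genes.
Upstream of Rpph1: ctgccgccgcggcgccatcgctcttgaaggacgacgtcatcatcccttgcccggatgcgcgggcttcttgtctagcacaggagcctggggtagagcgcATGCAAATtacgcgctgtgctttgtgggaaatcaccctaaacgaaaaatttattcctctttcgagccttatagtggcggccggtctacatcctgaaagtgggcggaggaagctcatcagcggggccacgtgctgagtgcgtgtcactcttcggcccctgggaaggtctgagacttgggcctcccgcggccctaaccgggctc
Upstream of Rmrp: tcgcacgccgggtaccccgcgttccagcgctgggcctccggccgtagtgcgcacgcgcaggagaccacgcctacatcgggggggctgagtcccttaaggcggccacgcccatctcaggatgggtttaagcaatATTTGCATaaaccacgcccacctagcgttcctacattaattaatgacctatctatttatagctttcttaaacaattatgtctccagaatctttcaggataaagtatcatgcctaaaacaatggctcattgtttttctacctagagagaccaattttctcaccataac

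The octamer lay 93 to 100 bases upstream of Rpph1 and 216 to 223 bases upstream of Rmrp, on opposite strands. Of 32544 distinct RefSeq promoter windows of the same length, 1.75% held it on either strand. The letters TATAA occurred 29 to 33 bases upstream of Rpph1 on the other strand, and 164 to 168 bases upstream of Rmrp, also on the other strand, and 24.8% of the windows held them. The bases nearest to Rmrp are outside the window shown. These matches describe the sequence and no binding was measured.

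The 2 genes of chromosome 17 stand next to each other on the plus strand. Gm26917 (ENSMUSG00000097971, 3329 bases) lies at chr17:39843013-39846341 and Gm42418 (ENSMUSG00000098178, 1831 bases) at chr17:39846958-39848788. RefSeq lists Gm42418 as a synonym of Rn18s-rs5, a copy of 18S ribosomal RNA at chr17:39846354-39848202, which starts 13 bases after Gm26917 ends and covers 1245 bases of Gm42418, or 68.0% of it. The stretch below, chr17:39848143-39848232, shows in capitals the last 60 bases of the RefSeq interval inside Gm42418, with the next 30 bases in lower case.
Gm42418: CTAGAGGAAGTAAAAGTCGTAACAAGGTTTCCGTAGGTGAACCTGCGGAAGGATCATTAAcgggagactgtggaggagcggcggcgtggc

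Depth could be recovered from the RPKM values. With GENCODE M21 lengths they were whole multiples of 1 read, within 0.01 of a read, for 83.7% to 85.05% of the genes above 0, and for 7 of 7 of the noncoding RNAs described here in every replicate. The totals behind them were 114374063, 95394533, 111330271 and 103718987 reads in replicates 1 to 4, of which 30539711 to 34992012 carried an allele in the separate allele tables. Among whole values 60.5% to 65.3% were even. Markers of T cells summed to 647 to 725 RPKM over 11 genes, with all 11 above 1 RPKM. Those of B cells summed to 4.36 to 9.98 over 4 genes, of myeloid cells to 20.9 to 81.6 over 4 genes, of NK cells to 0.0521 to 0.231 over 2 genes and of red cells to 1.01 to 6.12 over 3 genes. Of the myeloid markers Lyz2 had a mean of 41.3 RPKM, Cd14 3.30, Itgax 0.742 and Csf1r 0.689.

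The 7 genes together held 34.4%, 25.5%, 30.4% and 24.6% of the summed RPKM in replicates 1 to 4, a mean of 28.7% ± 4.57 (SD, n = 4). Of the reads they held 24.5% ± 4.11. Gm26917 and Gm42418 made up most of both, with 21.3% ± 4.48 of the summed RPKM and 22.7% ± 4.24 of the reads. The other 5 genes held 7.46% ± 1.37 of the summed RPKM but 1.86% ± 0.223 of the reads. RPKM divides by length, so the short RNAs weigh more in it: Rpph1 had 5.66% ± 1.10 of the summed RPKM and 0.618% ± 0.134 of the reads, while Malat1 had 0.441% ± 0.0485 of the summed RPKM and 1.05% ± 0.125 of the reads.

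**Figure D1:**
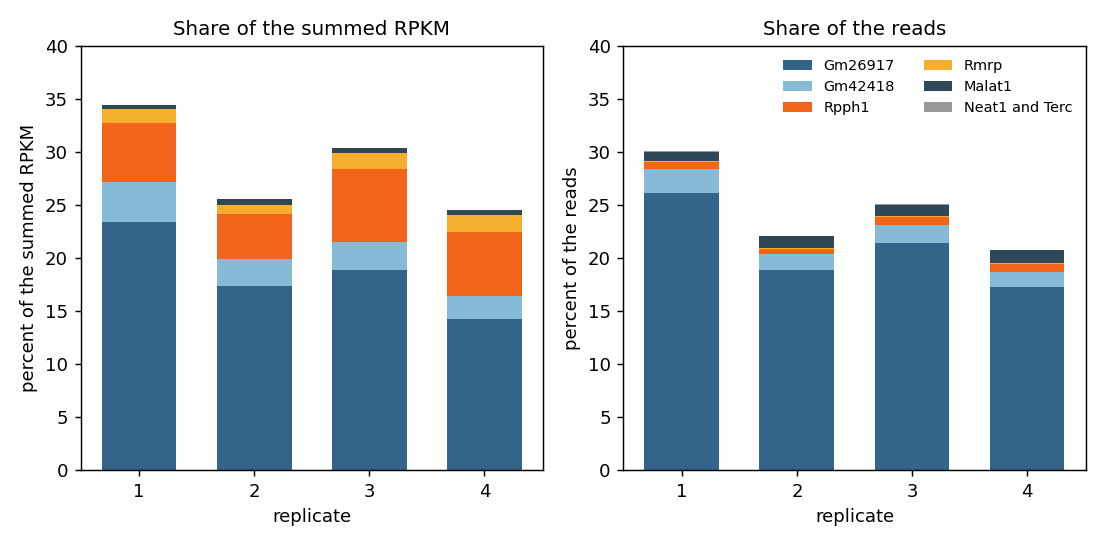
Stacked bars give the percent of the summed RPKM (left) and of the reads (right) held by the noncoding RNAs in each of the 4 replicates, with both axes starting at 0. Gm26917 fills most of each bar, Rpph1 is visible mainly on the left and Malat1 on the right, and replicate 1 has the tallest bar with 34.4% of the summed RPKM.

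Gm26917, Rpph1, Gm42418 and Rmrp were among the 6 highest of the whole table by mean RPKM, the other 2 being the mitochondrial genes mt-Co1 and mt-Rnr1. Gm26917 was first in 4 of 4 replicates, Rpph1 the second in the mean, Gm42418 the fourth and Rmrp the sixth. Malat1 was 16th, just after the ribosomal protein gene Rps23, which was 15th. Neat1 was 1109th and Terc 4930th among 23510 genes above 0 RPKM, so that the last 2 are not among the highest. Over the 11453 genes that averaged 1 RPKM or more, the median was 6.72 RPKM.

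**Figure D2:**
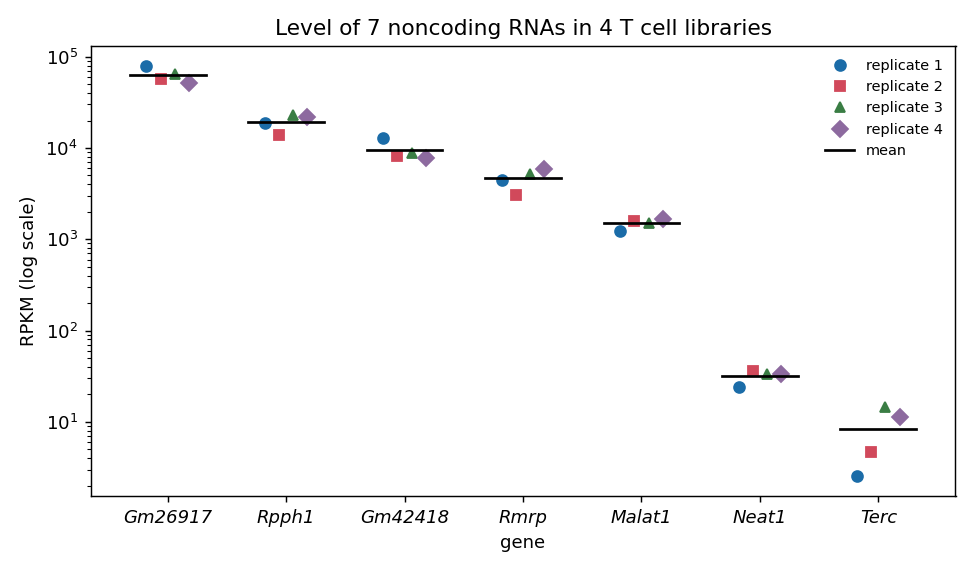
Points give RPKM in each of the 4 replicates on a log axis, and black lines the mean of each gene. The genes run from Gm26917 with a mean of 62893 RPKM to Terc with 8.28 RPKM, and the replicates of Terc are the most spread.

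Among the RNase RNAs, Rpph1 had 18611, 13785, 23272 and 21881 RPKM in replicates 1 to 4, a mean of 19387 ± 4215 (SD, n = 4). Rmrp had 4431, 3030, 5190 and 5887 RPKM, a mean of 4635 ± 1224. Both were lowest in replicate 2, and both were higher in replicates 3 and 4 than in replicate 1. The ratio of Rpph1 to Rmrp in RPKM ran from 3.72 in replicate 4 to 4.55 in replicate 2, and its coefficient of variation of 8.94% was lower than those of Rpph1 (21.7%) and Rmrp (26.4%) alone. Without replicate 2 the coefficients of variation were 11.3% for Rpph1 and 14.1% for Rmrp. Replicate 2 also had the highest sum of the 4 myeloid markers, 81.6 RPKM, against 50.9, 30.5 and 20.9 RPKM in replicates 1, 3 and 4. Lyz2 alone gave 74.4 RPKM of the sum in replicate 2, while Csf1r was highest in replicate 1. The part of myeloid cells in the level of Rpph1 or Rmrp was not tested. In bulk RNA fewer cells that make an RNA and less RNA per cell cannot be told apart.

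Among the noncoding RNAs described here, Terc was lowest in RPKM and varied most. It had 2.56, 4.66, 14.6 and 11.3 RPKM in replicates 1 to 4, which were 124, 188, 689 and 495 reads, a mean of 8.28 ± 5.63 RPKM (SD, n = 4). Replicates 3 and 4 were high and replicates 1 and 2 low, and the highest was 5.71 times the lowest. Its coefficient of variation was 68.0%, and of the 200 genes nearest to it in mean RPKM, with a median of 9.85%, 0 had a higher one. Those genes were matched on RPKM and not on length or reads. Genes picked for likeness to Terc in each replicate had 6.65 ± 5.01 RPKM (Snord8), 6.04 ± 3.35 (Mir1b) and 6.99 ± 2.73 (Ifit1). Their spread follows from how they were picked. Whether duplicate reads of 1 molecule were removed is not stated, so these counts may stand for fewer molecules.

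Malat1 had 1247, 1589, 1526 and 1655 RPKM in replicates 1 to 4, a mean of 1505 ± 179 (SD, n = 4). Neat1, which lies 22036 bases away on the same strand, had 24.1, 36.0, 33.2 and 33.4 RPKM, a mean of 31.7 ± 5.22. Replicate 1 was the lowest for both, and without it the coefficients of variation were 4.06% for Malat1 and 4.53% for Neat1, against 11.9% and 16.5% with it. Malat1 stood 47.9 ± 3.44 times above Neat1 per length, between 44.2 and 51.8 times in the 4 replicates. Malat1 is annotated with 6983 bases at chr19:5795690-5802672 (ENSMUSG00000092341) and Neat1 with 20771 bases at chr19:5824708-5845478 (ENSMUSG00000092274), both on the minus strand. A count over the whole of Neat1 does not separate its short from its long isoform.

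Gm26917 had 78390, 56794, 64442 and 51944 RPKM in replicates 1 to 4, a mean of 62893 ± 11542 (SD, n = 4), which were 17935104 to 29847175 reads per library. Gm42418 had 12756, 8272, 8930 and 7800 RPKM, a mean of 9439 ± 2259. Replicate 1 was highest and replicate 4 lowest for both. Their RPKM ratio was 6.72 ± 0.448. Ribosomal RNA had been depleted with Ribo-Zero before the libraries were built. The ribosomal RNA genes of the mitochondrion, mt-Rnr1 and mt-Rnr2, took 0.259%, 1.05%, 0.477% and 2.94% of the reads in replicates 1 to 4. Replicate 1 was thus highest in the chromosome 17 genes and lowest in mitochondrial ribosomal RNA, and replicate 4 the reverse. The part of ribosomal RNA removal in these levels was not tested. The deposited values also use the name Rn18s-rs5 for a separate gene on the opposite strand of Gm42418 (ENSMUSG00000106106). This gene was low, with 7.70 ± 2.41 RPKM. One of its exons, chr17:39846353-39848201, nearly matches the RefSeq interval of the same name, chr17:39846354-39848202. AY036118, also on the opposite strand, was listed at 0 in all replicates.

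**Figure D3:**
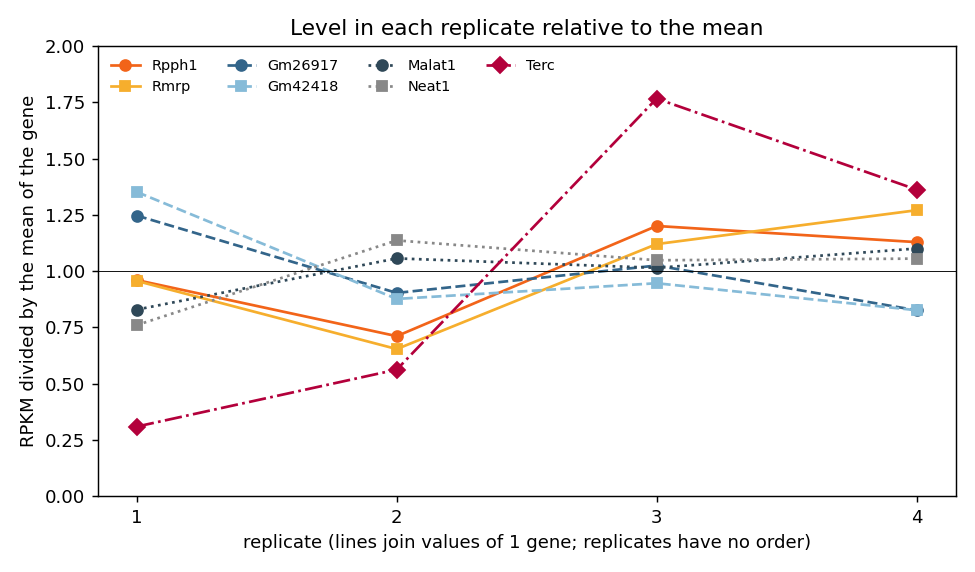
Each line gives the RPKM of a gene in the 4 replicates divided by its own mean, so that 1 is the mean. Rpph1 and Rmrp run close together with their lowest point in replicate 2, Gm26917 and Gm42418 with their highest in replicate 1, and Malat1 and Neat1 with their lowest in replicate 1.

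Since RPKM is scaled to all reads of genes, the chromosome 17 pair, with 28.4%, 20.4%, 23.1% and 18.7% of the reads in replicates 1 to 4, changes the scale of every other gene. When depth was taken as the reads outside these 2 genes, a choice made after seeing the data, Malat1 had 1743, 1997, 1984 and 2037 RPKM and a coefficient of variation of 6.88% in place of 11.9%. That of Neat1 was 12.4%, and those of Rpph1 and Rmrp were 21.9% and 25.4%. Replicate 1 was still the lowest for Malat1 and Neat1, and replicate 2 for Rpph1 and Rmrp.

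The genes most like each RNA in level over the 4 replicates were named by the smallest root mean square difference of log2(RPKM + 0.1). For Malat1 these were B2m, which encodes the light chain of MHC class I (difference 0.14), the elongation factor gene Eef2 (0.17) and Rps23 (0.19). For Neat1 they were the phosphodiesterase genes Pde3b (0.061) and Pde7a (0.062) and Btaf1 (0.068). Rmrp was nearest to the elongation factor gene Eef1a1 (0.32), followed by the ribosomal protein genes Rplp1 (1.05) and Rps24 (1.07). Terc was nearest to Snord8 (0.43), Mir1b (0.44) and Ifit1 (0.51). Rpph1 was nearest to mt-Co1 (0.52), Gm42418 (1.11) and Gm26917 (1.75). For Gm26917 the nearest were Rpph1 (1.75), mt-Co1 (2.01) and Gm42418 (2.75), and for Gm42418 they were mt-Co1 (0.95), Rpph1 (1.11) and Rmrp (1.14). Above about the level of Rmrp few genes exist to compare with.

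Reads with an allele were found for 4 of the 7 RNAs. Of all reads, 99.9% ± 0.00748 of those of Rpph1 carried an allele, 65.4% ± 2.31 of those of Rmrp, 65.4% ± 0.352 of those of Neat1 and 52.7% ± 0.390 of those of Malat1 (SD, n = 4). The median over 8189 tested genes with whole reads was 54.1%, and the 10th and 90th percentiles were 21.2% and 84.3%. Terc had 0 allelic reads among 1496, and the upper limit set by 3 counts is 0.201%, which covers counting error only. Gm26917 and Gm42418 also had 0 allelic reads, among 89701948 and 7417770 reads. The allelic ratio of these 3 genes was therefore not measured.

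Rpph1 came mostly from the Castaneus allele. Its Castaneus share of allelic reads was 72.6%, 72.6%, 71.7% and 74.7% in replicates 1 to 4, a mean of 72.9% ± 1.25 (SD, n = 4). Castaneus had 492065, 304276, 591922 and 539894 reads, against 186113, 114650, 233436 and 183178 reads for C57BL/6. In RPKM this is 14136 ± 3097 from Castaneus and 5251 ± 1164 from C57BL/6. The ratio of Castaneus to C57BL/6 was 2.74, a log2 ratio of 1.45 with a standard error of 0.03 (edgeR's quasi-likelihood test, adjusted p = 2.45e-11 over 10268 autosomal genes), and Castaneus was higher in 4 of 4 replicates. Over all autosomal genes tested 28.1% were called, 12.4% higher from Castaneus and 15.6% higher from C57BL/6. Which direction had more calls depended on the scaling, with 1481 higher from Castaneus and 1352 from C57BL/6 under TMM factors. The median Castaneus share over these genes was 48.9%. A larger ratio toward Castaneus was found for 4.06% of the genes tested. Rpph1 had more allelic reads than any other gene tested.

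Rmrp leaned slightly to Castaneus. The Castaneus share was 54.6%, 54.0%, 54.7% and 54.9% in replicates 1 to 4, a mean of 54.5% ± 0.368 (SD, n = 4), above 50% in every replicate. The log2 ratio of Castaneus to C57BL/6 was 0.29 with a standard error of 0.02, a ratio of 1.22 (edgeR's quasi-likelihood test, adjusted p = 1.49e-06). Of the genes tested 20.9% had a larger ratio toward Castaneus. Without the replicate as a block the call was lost (adjusted p = 0.363, with 1.48e-52 to 0.363 over 13 alternatives).

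Neat1 came mostly from C57BL/6. Its Castaneus share was 33.5%, 33.5%, 32.9% and 33.8% in replicates 1 to 4, a mean of 33.4% ± 0.362 (SD, n = 4). Castaneus had 12549 to 16521 reads and C57BL/6 had 24875 to 33640. In RPKM this is 10.6 ± 1.74 from Castaneus and 21.1 ± 3.48 from C57BL/6. The log2 ratio was -0.97 with a standard error of 0.03 (edgeR's quasi-likelihood test, adjusted p = 1.45e-09), lower from Castaneus in 4 of 4 replicates, and 6.63% of the genes tested had a larger ratio toward C57BL/6.

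Malat1, with the second most allelic reads of all genes tested, was near balance. The Castaneus share was 49.1%, 50.2%, 50.3% and 49.3% in replicates 1 to 4, a mean of 49.7% ± 0.622 (SD, n = 4), on either side of 50%. The log2 ratio was 0.0084 with a standard error of 0.013 and did not pass (edgeR's quasi-likelihood test, adjusted p = 0.682). The sign and the call depended on the scale of the alleles. With TMM factors Malat1 was called higher from Castaneus at a log2 ratio of 0.057 (edgeR, adjusted p = 0.00707, with 0.00707 to 0.954 over 13 alternatives), and with the same library size for both alleles the log2 ratio was -0.015. Without replicate 2 or 3 it also turned negative (-0.0036 and -0.0020), and none of these 3 values was called. So 3 of the 4 RNAs tested passed, 2 higher from Castaneus and 1 higher from C57BL/6, beside 28.1% of all autosomal genes. By allelic reads Rpph1, Malat1, Rmrp and Neat1 ranked 1, 2, 11 and 32 among 10268 genes tested. Small ratios were thus easier to call for them than for most genes behind that share. An exact sign-flip permutation test over the 4 replicates, two-sided, gave p = 0.125 for Rpph1, Rmrp and Neat1, the smallest that 4 replicates allow, and p = 0.75 for Malat1.

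**Figure D4:**
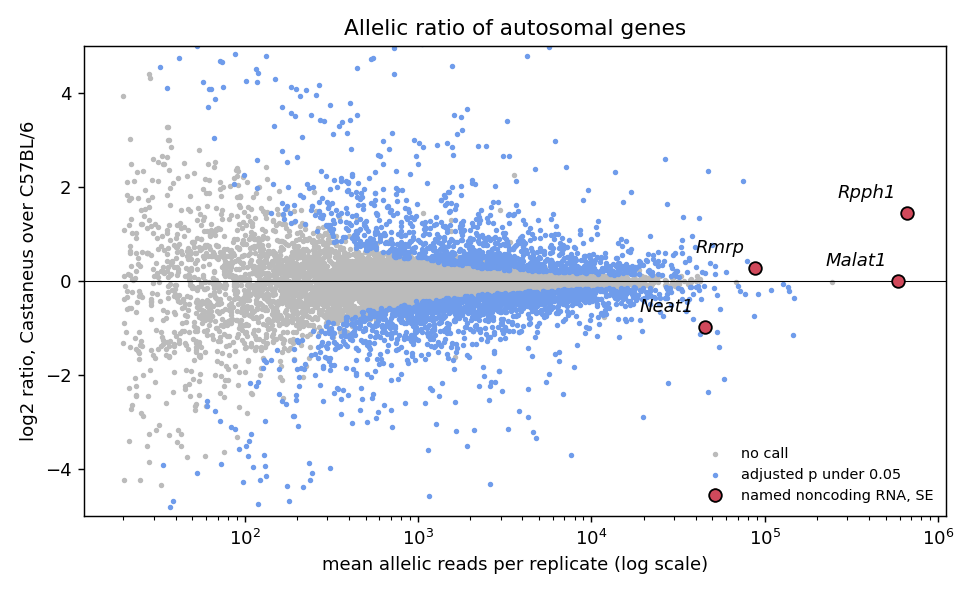
Each point is 1 of 10268 autosomal genes, with the mean number of allelic reads per replicate on a log axis and the log2 ratio of Castaneus to C57BL/6, and 188 genes lie outside the drawn range. Blue points passed the test, and the red points with standard error bars are Rpph1 at 1.45, Rmrp at 0.29, Malat1 at 0.0084 and Neat1 at -0.97.

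The 95% Wilson intervals of the shares in single replicates reached at most 0.135 percentage points either way for Rpph1 and Malat1, 0.430 for Rmrp and 0.478 for Neat1. They cover counting error only and take each read as independent, while handling of duplicate reads is not stated. The share of Rpph1 in replicate 4 (interval 74.6% to 74.8%) lay above that in replicate 3 (interval 71.6% to 71.8%). Among the 200 genes nearest to each in allelic reads the median SD of the share over animals was 1.21 percentage points. The SD of Rpph1, 1.25 points, was near that median, while 194, 174 and 195 of the 200 had a larger SD than Rmrp, Malat1 and Neat1. Only 0, 8, 0 and 22 of the 200 had more allelic reads than Rpph1, Rmrp, Malat1 and Neat1, so most of them carry more counting error.

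The nearest tested genes on either side of Rpph1 had shares below 50%. Parp2, which starts 74 bases from Rpph1 on the other strand, had a Castaneus share of 40.3%, 48.2%, 43.4% and 41.6% in replicates 1 to 4, a mean of 43.3% ± 3.49 (SD, n = 4). Rpph1 was higher than Parp2 in 4 of 4 replicates, by 29.5 ± 4.00 percentage points (exact sign-flip permutation test, two-sided, p = 0.125, the smallest that 4 replicates allow). Ttc5, 21930 bases away on the other side, had 43.3% ± 4.67. Both neighbours were called higher from C57BL/6 in edgeR (adjusted p = 0.0314 for Parp2 and adjusted p = 0.0454 for Ttc5). Leaving out 1 replicate could end the call of Parp2 (adjusted p = 0.146, 0.0849 and 0.163 without replicates 1, 3 and 4) and that of Ttc5 (adjusted p = 0.117, 0.0765 and 0.190 without replicates 1, 2 and 3). With TMM factors (adjusted p = 0.0577 and 0.0790) as well as in a fit with no block (adjusted p = 0.0549 and 0.0699), Parp2 and Ttc5 did not pass in edgeR. One exon of Ccnb1ip1 lies within Rpph1 on the same strand, over 233 bases, and how its reads were assigned is not stated. Ccnb1ip1 had 0.256 ± 0.120 RPKM, and its few allelic reads were from Castaneus, with 16, 0, 15 and 18 in replicates 1 to 4, against 0 from C57BL/6 in each. With a mean of 12.25 it was under the minimum of 20 allelic reads and was not tested.

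Rmrp and the gene across from it had close mean shares. Ccdc107, an exon of which overlaps Rmrp on the opposite strand over 124 bases, had a Castaneus share of 54.7% ± 3.63 (SD, n = 4) at 11.6 ± 1.87 RPKM and was not called (log2 ratio 0.30, edgeR, adjusted p = 0.185). Rmrp minus Ccdc107 was -0.199 ± 3.57 percentage points, from -3.17 to 4.90. The next tested genes on either side, Sit1, with 55.5% ± 7.55, and Tln1, which encodes the integrin adaptor talin, with 50.6% ± 0.990, did not pass (edgeR, adjusted p = 0.248 and adjusted p = 0.351). Sit1 passed without replicate 2 (log2 ratio 0.54, adjusted p = 0.0462), and Tln1 passed in DESeq2's Wald test (adjusted p = 0.0155).

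Neat1 and Malat1 differed in share although they are neighbours. Neat1 minus Malat1 was -16.3 ± 0.919 percentage points, lower in 4 of 4 replicates (exact sign-flip permutation test, two-sided, p = 0.125, the smallest that 4 replicates allow). Frmd8, 4224 bases beyond Neat1, had a Castaneus share of 44.9% ± 2.45 and was called higher from C57BL/6 (log2 ratio -0.27, edgeR, adjusted p = 0.0117), a call lost without replicate 3 (adjusted p = 0.0685) and without the replicate block (adjusted p = 0.0681). Neat1 minus Frmd8 was -11.5 ± 2.31 percentage points, from -14.8 to -9.68.

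**Figure D5:**
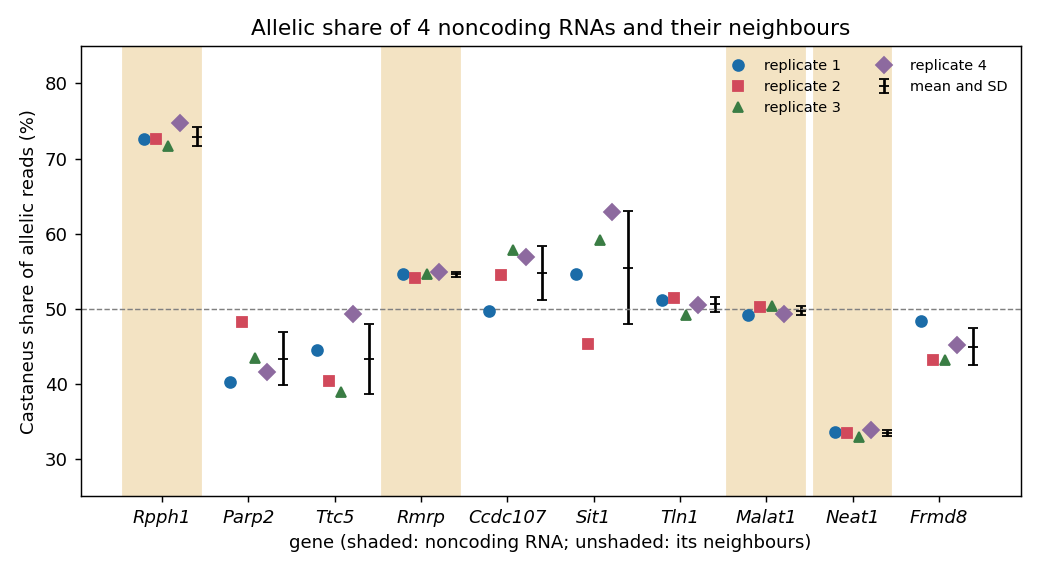
Points give the Castaneus share of allelic reads in each replicate, with the mean and SD beside them and a dashed line at 50%. The shaded columns are the noncoding RNAs, of which Rpph1 lies above 70% and Neat1 below 35%, and the unshaded columns are neighbouring genes, of which those beside Rpph1 lie below 50% in 4 of 4 replicates.

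The allelic balance of chromosome 14 differed with and without Rpph1. It supplied 37.7% ± 5.40 of the allelic reads of chromosome 14 and 1.99% ± 0.430 of those of all genes (SD, n = 4). The Castaneus share of chromosome 14 was 58.1% ± 1.17 with Rpph1 and 49.1% ± 0.301 without it. Leaving it out was a choice made after seeing the data. Over the autosomes the share was 49.6% ± 0.0870 with Rpph1 and 49.1% ± 0.0241 without it. Malat1 supplied 34.1% ± 1.87 of the allelic reads of chromosome 19, Neat1 2.64% ± 0.299, and Rmrp 4.403% ± 1.15 of those of chromosome 4. Without Malat1 and Neat1 or without Rmrp the share was 49.8% ± 0.303 on chromosome 19, against 49.4% ± 0.217 with them, and 48.6% ± 0.196 on chromosome 4, against 48.9% ± 0.166 with Rmrp.

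The genes for the proteins that bind Rpph1 and Rmrp had far lower RPKM than Rpph1 and Rmrp themselves. The proteins were not measured. Of 12 genes for RNase P and RNase MRP proteins, 10 had a mean of at least 1 RPKM, with a median of 6.00 over the list. The highest were Rpp21 with 12.8 ± 2.10, Rpp30 with 9.67 ± 1.64 and Rpp25l with 8.97 ± 1.02 RPKM, while Rpp25 was listed at 0 in all replicates. Of the 9 tested for allelic ratio, 0 were called in edgeR, 1 had an unadjusted p under 0.05 and 1 was called in DESeq2. Over all autosomal genes tested these shares were 28.1%, 38.0% and 37.1%. The gene called in DESeq2 was Pop5, with a Castaneus share of 57.7% ± 3.36 (edgeR, adjusted p = 0.0626). The median log2 ratio of the list was 0.15, against -0.04 over all autosomal genes tested.

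Of the telomerase list only the gene of the enzyme itself was under 1 RPKM. Tert, the reverse transcriptase that uses Terc as its template, had 0.821 ± 0.344 RPKM, and 10 of 11 genes had at least 1 RPKM, with a median of 9.20. The highest were Parn, which trims the 3′ end of the RNA, with 18.96 ± 1.99, Nop10 with 16.2 ± 3.50 and Ruvbl2 with 15.5 ± 1.52 RPKM. Of 9 genes tested, 0 were called in edgeR, 3 had an unadjusted p under 0.05 and 1, Parn, was called in DESeq2 (in edgeR, adjusted p = 0.0596), beside 28.1%, 38.0% and 37.1% of all autosomal genes tested. The median log2 ratio was -0.22. Dkc1, which encodes dyskerin and lies on the X chromosome, had 0% of its reads from Castaneus and was not part of the autosomal test.

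All 15 genes of the paraspeckle protein list had at least 1 RPKM, with a median of 25.8. Hnrnpk had 78.8 ± 4.11, Sfpq 53.1 ± 2.19 and Taf15 50.01 ± 9.60 RPKM, and Nudt21, which encodes a subunit of a 3′ end processing factor, was lowest with 6.34 ± 0.308. Of 14 genes tested, 1 was called higher from Castaneus, 1 higher from C57BL/6 and 12 were undecided, beside 12.4% and 15.6% of all autosomal genes tested. Nudt21 had a Castaneus share of 63.4% ± 2.63 (log2 ratio 0.82, edgeR, adjusted p = 0.000694). Matr3, which encodes the nuclear matrix protein matrin 3, had 42.2% ± 3.09 (log2 ratio -0.43, edgeR, adjusted p = 0.00602). Nono on the X chromosome had 0.0142% ± 0.0284 from Castaneus and was not part of this test. The median log2 ratio of the list was -0.03.

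Other RNAs of RNA polymerase III and other structural RNAs did not share the height of Rpph1 and Rmrp. Of 16 names listed 14 were found, of which 5 had at least 1 RPKM and 4 were listed at 0, with a median of 0.146. Among those 5 is the protein-coding gene Lars2, with 1.44 ± 0.223 RPKM. Rnu73b had 39.1 ± 7.60 and Rnu12, the RNA of the minor spliceosome, 11.4 ± 3.88 RPKM. Rn7sk, the RNA that restrains the elongation factor P-TEFb, was listed at 0 in all replicates, and Rn7s1 and Rn7s2, the RNAs of the signal recognition particle, had 0.0291 ± 0.0583 and 0.0161 ± 0.0321 RPKM. The Y RNAs Rny1 and Rny3 had 0.117 ± 0.234 and 0.174 ± 0.215 RPKM. Every cell uses these RNAs, and they have many near-identical copies in the genome. How reads with several matches were handled is not stated, so a listed 0 is not taken as absence. The cause of the low values was not tested. Of 3 genes of the list tested, 0 were higher from Castaneus and 1, the protein-coding gene Lars2, was higher from C57BL/6, with a Castaneus share of 38.5% ± 3.29 (log2 ratio -0.66, edgeR, adjusted p = 0.00528), beside 12.4% and 15.6% of all autosomal genes tested in the same directions.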

How the data were processed

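RNA of 4 libraries was analysed. The authors deposited read counts per gene and allele, called counts per the file headers and made of whole numbers whose totals differ, and RPKM values of both alleles together, whose total was recovered here from the steps of 1 read. STAR 2.7.1a, featureCounts (no version) and mm10 are named in the submitters' processing notes. Allele assignment, variants, strand setting and handling of duplicates and of reads with several matches are not stated. GENCODE M21 held 49326 of the 49671 gene IDs.

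Alleles were compared with edgeR 4.0.16 in R 4.3.3 (glmQLFit, glmQLFTest) with a block for each replicate (the 2 alleles share an animal), the autosomal total of each allele as library size and Benjamini-Hochberg adjustment at an FDR of 5%, over 10268 autosomal genes with a mean of at least 20 allelic reads and 1 RPKM. The test was tried on simulated data. Standard errors were taken from the ratio and its F statistic. Alternatives used DESeq2 1.42.0, TMM factors, equal library sizes, other filters, no block and 1 replicate fewer. Other steps used Python 3.11.15 and pandas 2.3.3. The genes and lists were chosen with earlier results of these data known. Named genes were the 7 RNAs, the highest RPKM ranks, the 3 nearest in level, neighbours, and called, highest and lowest genes of each list. The sign-flip p-values rest on the spread between these 4 samples alone. Those of edgeR and DESeq2 also draw on the spread of the other genes tested. Some marker and neighbouring genes are not reported here.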

Additional observations from a re-analysis of the deposited data

Results flagged for a closer look

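Of 49 sets of 4 replicate values examined, 1 held a replicate far from the others. Cenpq, the nearest tested gene above Gm42418 on chromosome 17, had Castaneus shares of 48.3%, 48.1%, 41.2% and 47.3% in replicates 1 to 4, and the gap below the other values was 0.86 of the whole range. Chance gives about 1 such set in 20, and 0 of the sets of the 7 noncoding RNAs held one.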

How the results depend on the processing

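The calls of Rpph1 and Neat1 were kept under all 13 alternatives, with log2 ratios of 1.409 to 1.5002 and -0.99 to -0.92. Without the replicate block the log2 ratio of Rmrp was 0.29 and not called (adjusted p = 0.363), its only lost call. The log2 ratio of Malat1 was 0.057 with TMM factors and 0.037 with library sizes that left out the 7 RNAs, chosen after the data were seen (adjusted p = 0.0445), both called, -0.015 with equal library sizes, and -0.0036 to 0.020 when 1 replicate was left out, none of these called. The cause was not tested. Genes higher from Castaneus numbered 1278, against 1930 with DESeq2's size factors and Wald test together and 1481 with TMM factors in edgeR, and genes higher from C57BL/6 1605, against 1041 to 1720 when 1 replicate was left out, 1041 without replicate 4. More genes were higher from C57BL/6 than from Castaneus, but the order turned with TMM factors (1481 from Castaneus and 1352 from C57BL/6) and with DESeq2 (1930 and 1883). As a share of reads in place of the summed RPKM, Rpph1 held 0.618%, Rmrp 0.126%, Terc 0.00035%, Malat1 1.05%, Neat1 0.0658% and Gm42418 1.73%, and without mitochondrial genes Malat1 held 0.489% of the summed RPKM. Counts of allelic reads limit Terc, Gm26917 and Gm42418, which had none.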

Other observations

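Other long noncoding RNAs were lower per length than Malat1, and 15 of 18 listed had a mean of at least 1 RPKM. Gas5, a host gene of small nucleolar RNAs, had 106 ± 38.7, Xist 91.3 ± 6.38 and Epb41l4aos 73.0 ± 9.42 RPKM (SD, n = 4), and Dnm3os was listed at 0. Of 11 autosomal genes of this list tested, 1 was higher from Castaneus, the imprinted Kcnq1ot1, 4 were higher from C57BL/6 and 6 were undecided, beside 28.1% called among all genes tested. Mirt1 on chromosome 19 had a Castaneus share of 28.1% ± 4.48 (log2 ratio -1.34, edgeR, adjusted p = 2.5e-05). Epb41l4aos had 42.9% ± 1.70, Mir17hg, the host of a microRNA cluster that favours lymphocyte growth, 43.8% ± 2.41, and Snhg1 41.6% ± 4.57. The call of Snhg1 was lost without any 1 of the 4 replicates and without the replicate block (edgeR, adjusted p = 0.277), that of Mir17hg without replicate 1 or 3, and that of Epb41l4aos without the replicate block (edgeR, adjusted p = 0.0544).

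Factors that serve RNA polymerase III at genes such as Rpph1 and Rmrp were moderate in level. All 12 had at least 1 RPKM, with a median of 9.77. Zfp143 had 16.5 ± 3.15, Bdp1 13.6 ± 1.05 and the polymerase subunit gene Polr3a 13.2 ± 1.15 RPKM, and Snapc5 was lowest with 2.72 ± 0.638 (SD, n = 4). Of 12 genes tested, 1, Bdp1, was called in edgeR and 3 in DESeq2, beside 28.1% and 37.1% of all genes tested. Bdp1 had a Castaneus share of 52.8% ± 2.06 (log2 ratio 0.19, edgeR, adjusted p = 0.0376). Its call was lost without replicates 1, 3 and 4 in turn (adjusted p = 0.142, 0.167 and 0.122), with equal library sizes (adjusted p = 0.0653) and without the replicate block (adjusted p = 0.164). The median log2 ratio of the list was 0.04.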
